A study of Rattus norvegicus with 12 samples.

Results

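The ventral hippocampus (VH) was followed across its late, adolescent step of maturation, from postnatal day 28 (P28) to postnatal day 45 (P45). The comparison set the 2 P45-VH libraries against the 2 P28-VH libraries, which are 4 of the 12 libraries of the series. They were defined by region and age, and the comparison was chosen with earlier results of these data known. The measure was the transcript level in FPKM (fragments per kilobase of transcript, scaled to the mapped fragments of the library), taken as log2(FPKM + 1). All animals were untreated Sprague-Dawley rats, and their sex was not stated. Under halothane, hippocampi with subiculum, dentate gyrus and all CA fields were cut into 3 equal parts along the long axis, the intermediate part was left out, and poly-A RNA of whole ventral tissue was sequenced. The other groups, with 2 libraries each, were P14-VH and dorsal hippocampus (DH) at P14, P28 and P45. Nothing says whether the 2 libraries of a group came from separate animals, so p-values measure the spread between these libraries only. In whole tissue, fewer cells of a type and less RNA per cell cannot be told apart.

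The ventral hippocampus is connected with the amygdala, hypothalamus and prefrontal cortex, and is known for its part in anxiety, stress and social behaviour, while the dorsal pole is tied more to spatial memory. In rodents the weeks after weaning span puberty and adolescence. Over this period growth-related proteins of young neurons decline, inhibitory circuits and perineuronal nets settle, astrocytes mature and oligodendrocytes go on wrapping axons with myelin.

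The deposited table held 17933 RefSeq transcripts, of which 14259 were above 0 in at least 2 of the 12 libraries and were tested. The FPKM values of a library summed to between 511388 and 537102, and 4364 to 4860 transcripts of a library were at 0. Read depth was not derived from FPKM. The regional markers Nr2f2 and Nts matched the labels at both ages. Nr2f2, a transcription factor of the ventral pole, was at 28.8 and 34.9 FPKM in P28-VH and 21.8 and 28.4 FPKM in P45-VH, against 2.98 to 4.26 FPKM in DH at these ages. Nts, which encodes neurotensin, was at 3.52 to 8.81 FPKM in these 4 VH libraries and 67 to 99 FPKM in DH. Summed, 8 ventral marker transcripts were at 223 and 262 FPKM in P28-VH and 183 and 233 FPKM in P45-VH. From P28 to P45 in VH, 7 of them were below 0 and 1 above (median -0.17), with 0 past unadjusted p under 0.05 in limma. The sum of 6 dorsal markers was 36.8 and 30.2 FPKM in P28-VH and 53 and 23.2 FPKM in P45-VH (median change 0.17). Euclidean distances on log2(FPKM + 1) were 38.94 to 41 between P28-VH and P45-VH libraries, close to those within the pairs (35.87 for P28-VH and 37.58 for P45-VH). The earlier step was wider, with 45.17 to 47.86 between P14-VH and P28-VH.

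Transcripts were tested in limma with 1 mean for each of the 6 groups, and a call needed a Benjamini-Hochberg adjusted p under 0.05 over all tested transcripts and a fold change of FPKM + 1 above 1.5. From P28 to P45, 3 transcripts rose (0.021% of those tested) and 2 fell (0.014%). With only these 4 libraries in the limma fit both counts were 0, beside 95 higher and 128 lower at unadjusted p under 0.05 and 1.5-fold. With 1 library left out, 5 or 9 were called higher without the first or second P45-VH library, and 6 or 7 lower without the first or second P28-VH library. The lower count was 1 without either P14-VH or P28-DH library or the first P45-VH library. The risers were Hpca, Il21 and 1 Plec transcript, and the fallers were Dpysl4 and Tnp2. Without the adjustment, 111 transcripts were higher (0.778%) and 141 lower (0.989%) at p under 0.05 and 1.5-fold. With a pseudocount of 0.1 FPKM in place of 1, these counts were 210 and 285. At unadjusted p under 0.05 with no fold limit, 906 were higher (6.35%) and 879 lower (6.16%), and the median change over all tested transcripts was -0.0002 (log2). By the same call rule, 343 transcripts (2.41%) passed between P14-VH and P28-VH, a step that shares the P28-VH libraries. With only the compared groups in the limma fit, this count was 0 too.

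**Figure D1:**
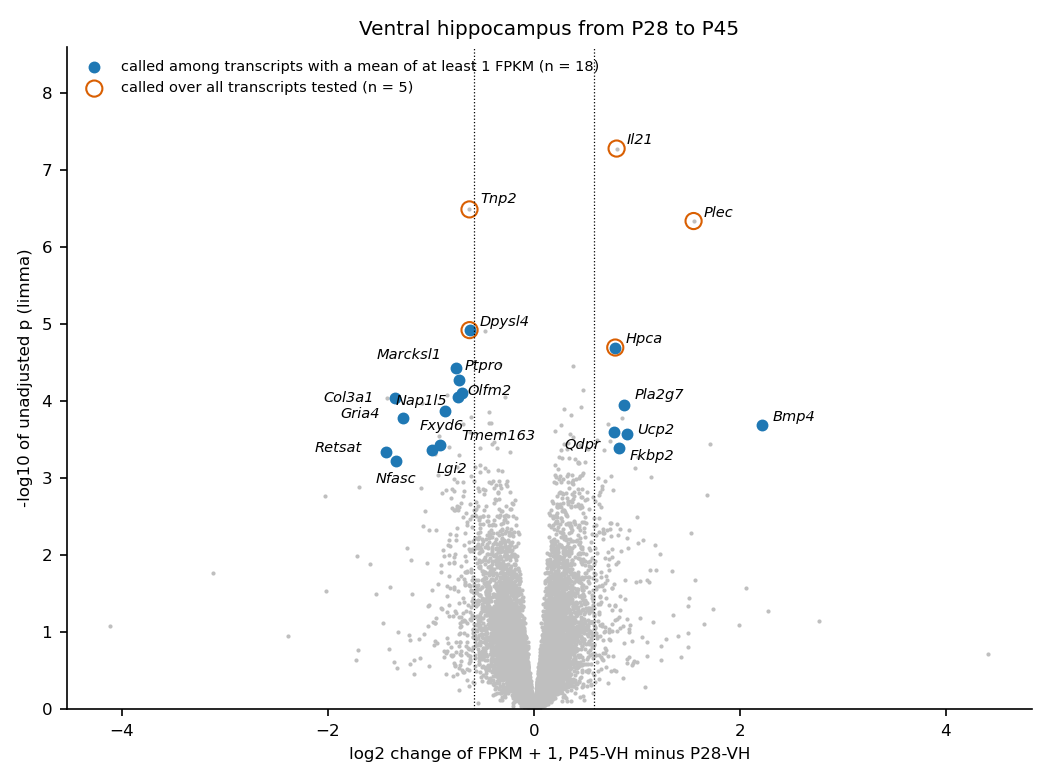
Each point is 1 of the 14259 transcripts tested, with the log2 change of FPKM + 1 from P28-VH to P45-VH on the horizontal axis and -log10 of the unadjusted limma p on the vertical axis; dotted lines mark 1.5-fold. Open circles are the 5 transcripts called over all tested, filled points the 18 called among transcripts averaging 1 FPKM or more, and Bmp4 lies farthest right of the filled points at 2.21.

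Of the 5 calls, Hpca and Dpysl4 were the abundant ones, and the promoters of these genes are shown together with that of Bmp4, whose transcript turned back after P28. The sequences are from RefSeq on the GRCr8 assembly, 250 bases before to 50 bases after the start of the gene, and capitals mark matches on either strand to CCAAT for the CCAAT box, GGGCGG for the GC box or CACGTG for the E-box. Searches for TATAAA for the TATA box and TGACGTCA for the cAMP response element matched in none of the 3. Hpca lies at chr5:146748309-146748608 on the minus strand, Dpysl4 at chr1:203312463-203312762 on the plus strand and Bmp4 at chr15:22101884-22102183 on the minus strand.
Hpca: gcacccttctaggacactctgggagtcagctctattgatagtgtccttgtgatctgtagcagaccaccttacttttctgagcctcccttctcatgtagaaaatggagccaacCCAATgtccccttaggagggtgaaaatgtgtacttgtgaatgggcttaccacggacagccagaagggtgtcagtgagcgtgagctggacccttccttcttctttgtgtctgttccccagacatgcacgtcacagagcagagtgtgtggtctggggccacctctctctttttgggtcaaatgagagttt
Dpysl4: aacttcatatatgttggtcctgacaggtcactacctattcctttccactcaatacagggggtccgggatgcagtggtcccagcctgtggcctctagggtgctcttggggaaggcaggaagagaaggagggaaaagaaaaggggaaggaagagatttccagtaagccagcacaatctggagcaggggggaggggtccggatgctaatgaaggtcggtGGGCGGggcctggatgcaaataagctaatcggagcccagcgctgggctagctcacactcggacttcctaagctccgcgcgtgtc
Bmp4: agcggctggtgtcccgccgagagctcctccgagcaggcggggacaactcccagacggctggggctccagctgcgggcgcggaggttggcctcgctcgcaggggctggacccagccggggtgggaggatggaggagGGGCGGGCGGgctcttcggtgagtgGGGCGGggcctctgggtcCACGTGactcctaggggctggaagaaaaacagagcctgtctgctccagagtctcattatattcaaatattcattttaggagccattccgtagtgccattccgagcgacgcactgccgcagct
The Hpca window holds 1 CCAAT box, 138 bases before the start, and 3 CpG dinucleotides. That of Dpysl4 holds 1 GC box, 34 bases before the start, and 10 CpG. In the Bmp4 window there are 3 GC boxes at 115, 111 and 90 bases before the start, the first pair of which overlap, 1 E-box at 72 bases, and 22 CpG. Over 33469 promoters of the same length, 37.5% held a CCAAT box, 33.1% a GC box, 6.42% an E-box, 14.2% a TATA box and 1.83% a cAMP response element, and the median was 7 CpG. A match describes the letters and is not evidence of a factor bound there.

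Hpca encodes hippocalcin, a neuronal calcium sensor that is abundant in hippocampal pyramidal cells. Its level was 859.6 and 856 FPKM in P28-VH and 1601 and 1377 FPKM in P45-VH. Both P45 libraries stood above both P28 libraries, and P14-VH was lower still at 665 and 633 FPKM. The rise was 0.79 on the log2 scale (SE 0.09), or 1.73-fold, with an adjusted p of 0.0478. In DH, Hpca was already at 2070.3 and 1804 FPKM at P28 and at 1976 and 1949 FPKM at P45, a change of 0.02 (unadjusted p = 0.806). The VH step exceeded the DH step by 0.77 (unadjusted p = 0.000277, adjusted p = 0.288), so the difference between regions did not pass over all transcripts. Leaving out 1 library at a time, the call was kept only without the second P45-VH library (adjusted p = 0.0307) and lost without any of the other 11 (adjusted p up to 0.153).

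Dpysl4 encodes a collapsin response mediator protein, of a family that acts on the cytoskeleton of growing neurites. It was at 36.4 and 38 FPKM in P28-VH and at 23.9 and 23.7 FPKM in P45-VH. The groups did not overlap, and the level had been 51.8 and 51.2 FPKM at P14. The fall was 0.62 on the log2 scale (SE 0.06), 1.54-fold, with an adjusted p of 0.035. DH stood at 27.2 and 25.4 FPKM at P28 and at 23.6 and 26.5 FPKM at P45, where the libraries overlapped. The DH change was -0.07 (unadjusted p = 0.33), and the step difference was -0.56 (unadjusted p = 0.000303, adjusted p = 0.288). The call was kept without either P45-DH library and lost without any of the other 10 (adjusted p up to 0.134).

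The other 3 calls rested on low values. Il21, a cytokine gene of T cells, was at 0.745 and 0.747 FPKM in P45-VH and was listed at 0 in the other 10 libraries. Tnp2, which encodes a transition protein of sperm chromatin, was at 0.547 and 0.537 FPKM in P28-VH and listed at 0 in every other library. Each of these entered the test only through the 2 libraries in which it was above 0, so these calls carry no support beyond the values themselves. The Plec transcript NM_001164297, of the cytoskeletal linker plectin, was at 0.000208 and 0.000621 FPKM in P28-VH and at 1.58 and 2.34 FPKM in P45-VH (adjusted p = 0.00218). The 11 Plec transcripts together were at 12 and 12.4 FPKM in P28-VH and 12.1 and 12.3 FPKM in P45-VH, which overlap, so that the call concerns how the gene's reads were shared among its transcripts.

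Among the 11197 transcripts that averaged 1 FPKM or more over all libraries, 6 were called higher (0.0536%) and 12 lower (0.107%). Of these 18, 2 were Hpca and Dpysl4, and the other 16 had adjusted p-values above 0.05 over all tested transcripts, up to 0.122. In each of the 18 the P28-VH and P45-VH libraries did not overlap. The call itself favours such transcripts, so this adds no support to it. Unless another source is named, the adjusted p-values given for the other 16 transcripts come from this narrower test, where they ran up to 0.0495.

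**Figure D2:**
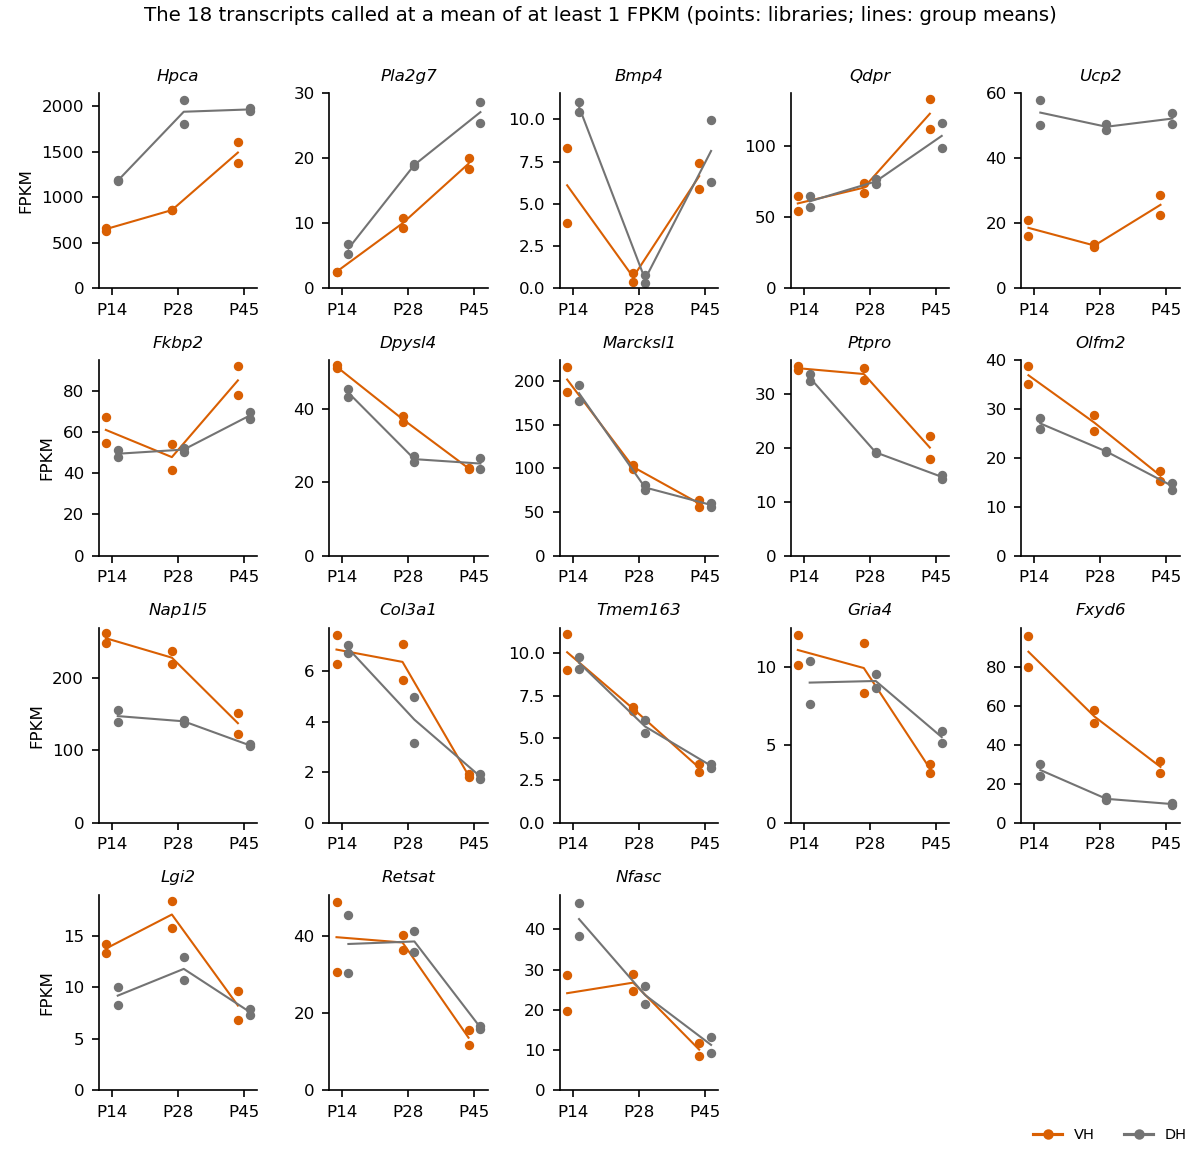
FPKM by age for the 18 transcripts called among those averaging 1 FPKM or more, with libraries as points and group means as lines, VH in orange and DH in grey. Hpca in VH climbed from 859.6 and 856 FPKM at P28 to 1601 and 1377 FPKM at P45 and stayed below DH, while Marcksl1, Olfm2 and Tmem163 were lower at each later age in both regions.

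The other 5 higher transcripts were Bmp4, Ucp2, Pla2g7, Qdpr and Fkbp2. Bmp4, a ligand of the bone morphogenetic protein family, was at 0.93 and 0.392 FPKM in P28-VH and at 5.87 and 7.41 FPKM in P45-VH. The P45 libraries lay within the range of P14-VH (3.88 and 8.31 FPKM), and the change after P28 was 2.21 (SE 0.34, 4.64-fold, adjusted p = 0.0335). Ucp2, a carrier of the inner mitochondrial membrane, was at 12.8 and 13.5 FPKM in P28-VH and 28.8 and 22.5 FPKM in P45-VH (0.91, SE 0.15, adjusted p = 0.0367). Its P45 levels remained under every DH library, which lay between 48.7 and 57.8 FPKM.
Pla2g7, the secreted phospholipase that breaks down platelet-activating factor, was at 9.23 and 10.7 FPKM at P28 and 18.4 and 20 FPKM at P45 (0.88, SE 0.12, adjusted p = 0.0335). P14-VH was the lowest group at 2.56 and 2.51 FPKM, so the level was higher at each later age. Qdpr, which regenerates the cofactor tetrahydrobiopterin, was at 74.3 and 67.2 FPKM and then 133 and 112 FPKM (0.78, SE 0.12, adjusted p = 0.0367). Fkbp2, a peptidyl-prolyl isomerase of the endoplasmic reticulum, was at 41.6 and 54.1 FPKM and then 77.9 and 92.4 FPKM (0.83, SE 0.14, adjusted p = 0.0401). Summed over its 2 transcripts, Fkbp2 was at 107 and 132 FPKM at P28 and 161 and 169 FPKM at P45, with a smaller change of 0.47.

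The lower transcripts included Marcksl1, Ptpro, Lgi2 and Olfm2. Marcksl1, an actin-binding protein of growing neurons, was at 104 and 98.8 FPKM in P28-VH and 63.4 and 55.8 FPKM in P45-VH. It had been at 216 and 188 FPKM in P14-VH, and the later change was -0.76 (SE 0.09, adjusted p = 0.0314). Ptpro, a receptor tyrosine phosphatase, was at 32.6 and 34.9 FPKM at P28 and 17.9 and 22.2 FPKM at P45 (-0.73, SE 0.09, adjusted p = 0.0335). P14-VH held 35.2 and 34.4 FPKM, close to P28-VH, whereas DH was already at 19.1 and 19.2 FPKM at P28. Lgi2, a secreted leucine-rich repeat protein, was at 15.8 and 18.4 FPKM and then 6.8 and 9.67 FPKM (-0.98, SE 0.17, adjusted p = 0.0495). Olfm2, a secreted olfactomedin protein, was at 28.9 and 25.5 FPKM and then 17.4 and 15.3 FPKM (-0.70, SE 0.09, adjusted p = 0.0335). In both genes all P45-VH values lay below all VH values at P14 and P28.

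Fxyd6, Tmem163, Col3a1, Retsat and Nap1l5 were also among them. Fxyd6, a regulator of the sodium pump that was more abundant in VH than in DH at each age, was at 51.3 and 57.5 FPKM in P28-VH and 25.6 and 31.7 FPKM in P45-VH (-0.91, SE 0.15, adjusted p = 0.0401). Tmem163, a zinc-binding protein of synaptic vesicles, was at 6.84 and 6.62 FPKM and then 3.47 and 3.03 FPKM (-0.87, SE 0.13, adjusted p = 0.0401). Col3a1, a fibrillar collagen, was at 7.08 and 5.65 FPKM and then 1.93 and 1.81 FPKM (-1.35, SE 0.19, adjusted p = 0.0335). Its P14-VH level of 6.27 and 7.43 FPKM was like that of P28. Retsat, the retinol saturase, was at 40.2 and 36.3 FPKM and then 11.7 and 15.5 FPKM (-1.44, SE 0.25, adjusted p = 0.0401), and the DH libraries at P45 were at 16.6 and 15.8 FPKM. Nap1l5, an imprinted gene of the nucleosome assembly family, was at 219 and 237 FPKM and then 123 and 152 FPKM (-0.73, SE 0.10, adjusted p = 0.0335).

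In Gria4 and Nfasc, 1 of several transcripts was called. Gria4 encodes an AMPA receptor subunit, and its transcript NM_017263 was at 11.5 and 8.34 FPKM in P28-VH and 3.19 and 3.79 FPKM in P45-VH (-1.27, SE 0.19, adjusted p = 0.0335). Its other 2 transcripts differed by -0.23 and -0.19 (adjusted p = 0.695 and 0.676 over all transcripts). The sum of the 3 was 44.8 and 45 FPKM and then 30.6 and 36.3 FPKM, without overlap (-0.42, adjusted p = 0.234 over all genes). Nfasc encodes neurofascin of the axon initial segment and nodes, and NM_001160315 was at 28.9 and 24.6 FPKM and then 11.7 and 8.42 FPKM (-1.34, SE 0.24, adjusted p = 0.045). Over its 4 transcripts the sum was 72.8 and 62.5 FPKM and then 54.2 and 48.2 FPKM, without overlap (-0.39, adjusted p = 0.185 over all genes).

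Other transcripts with large differences did not pass. RT1-Cl, a class I histocompatibility gene, was at or near 0 in P28-VH and at 1.21 and 3.84 FPKM in P45-VH (adjusted p = 0.105). Fxyd3, a small regulator of the sodium pump, was at 0.736 and 1.44 FPKM and then 4.25 and 5.69 FPKM (adjusted p = 0.201). Hand2, a transcription factor of the sympathetic lineage and heart, was listed at 0 in P28-VH and was at 1.26 and 2.54 FPKM in P45-VH (adjusted p = 0.392). Ly96, a partner of the receptor TLR4, was at 8.95 and 6.55 FPKM and then listed at 0 in both P45-VH libraries (adjusted p = 0.285). Its duplicates also differed widely elsewhere, at 10.4 and 0 FPKM in P45-DH and 0 and 2.37 FPKM in P14-VH. In Cr1l, a complement regulator, NM_001005265 was at 13 and 10.6 FPKM and then 3.08 and 2.79 FPKM (-1.70, adjusted p = 0.145), and the sum of its 2 transcripts was 16.1 and 14.4 FPKM and then 11.4 and 11.8 FPKM (-0.36). For Cep63, Sqstm1 and Dlgap3, the transcripts with the largest differences belonged to genes whose summed levels overlapped between the ages. The Bcl2l11 transcript NM_022612, of a pro-apoptotic gene, was at 3.36 and 1.07 FPKM and then listed at 0 in both P45-VH libraries (adjusted p = 0.257), and the sum of its 3 transcripts was 3.36 and 2.31 FPKM and then 0.453 and 0 FPKM.

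Transcripts that turned back after P28 were counted next. At unadjusted p under 0.05 and 1.5-fold at both steps, 30 (0.21%) were higher at P28 than at P14 and then lower at P45, and 18 (0.126%) were lower and then higher. Called at both steps were 1 in the first direction, Tnp2, which was tested only because of its P28-VH values, and 0 in the second by limma. Among transcripts averaging 1 FPKM or more the counts were 0 and 1 (Bmp4), and with a pseudocount of 0.1 FPKM 5 and 0. Because both steps use the P28-VH libraries, a high or low pair at P28 enters both differences, and the counts are a description. In 16 of the 30 and 7 of the 18, the P45-VH mean lay within the range of the P14-VH libraries. Means were under 1 FPKM in 10 of the 30 and 4 of the 18. In DH, 18 of the 30 had the same order of means, beside 28.9% of all tested transcripts, and 12 of the 18 beside 26.1%.

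The most abundant of those named that were highest at P28 was Ptgds, a prostaglandin D2 synthase. It was at 22.4 and 30.1 FPKM at P14, 241 and 169.9 FPKM at P28 and 78.9 and 126 FPKM at P45 in VH. The P28 libraries stood above all others, and the later change was -1.02 (SE 0.26, unadjusted p = 0.00468, adjusted p = 0.195). DH held 104 to 112 FPKM at P28 and 93.6 to 117 FPKM at P45, which overlap. Slc6a20, a proline transporter of barrier tissues, was at 4.02 and 2.79, then 12.5 and 8.25, then 4.57 and 5.05 FPKM in VH (adjusted p = 0.195 for the later step). Beside these genes, the summed level of 16 choroid plexus transcripts was 75.5 and 56.2 FPKM in P28-VH and 56 and 36.2 FPKM in P45-VH, with Ttr at 25.7 and 11.7 and then 9.87 and 5.64 FPKM. Of these 16, 2 were lower (12.5%) and 1 higher (6.25%) in VH at unadjusted p under 0.05 in limma, beside 6.16% and 6.35% of all tested. In DH, where Ptgds overlapped, their sum was 53.4 and 45.2 FPKM at P28 and 41.1 and 31.7 FPKM at P45. The part of choroid plexus in Ptgds and Slc6a20 was not tested. The 30 transcripts also held Mbp and Ugt8 of the myelin list below.

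Among the other transcripts highest at P28, Kcnd3 stood out by its tight pairs. Its transcript NM_001270962, of a potassium channel that carries A-type current, was at 6.35 and 6.26 FPKM at P14, 12.8 and 12.6 FPKM at P28 and 5.14 and 5.86 FPKM at P45 (unadjusted p = 0.00423, adjusted p = 0.189 for the later step). The sum of its 3 transcripts was 19.5 and 19.7, then 25.8 and 27.5, then 20.3 and 21.6 FPKM, the same order without overlap of P28. Ccl6, a chemokine, and Cd52, a lymphocyte surface antigen, were at 1.28 and 3.76 FPKM and at 0.55 and 1.08 FPKM in P28-VH and at 0 in the other 4 VH libraries. Cd52 was at 0 in DH too and was tested only because of its P28-VH values. The Morn2 transcript NM_001126086 and Smim1 reached 1.6 and 0.737 FPKM and 2.21 and 2.89 FPKM at P28. Summed over its 2 transcripts, Morn2 was at 3.66 and 4.88 FPKM in P28-VH and 1.62 and 4.06 FPKM in P45-VH, which overlap.

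In the opposite direction, Bmp4 had the clearest course. Its VH levels of 3.88 and 8.31, then 0.93 and 0.392, then 5.87 and 7.41 FPKM were mirrored in DH by 10.5 and 11, then 0.312 and 0.766, then 6.29 and 9.97 FPKM. In both regions the P28 libraries lay below all others, and the change after P28 in DH was 2.55 (unadjusted p = 7.57e-05). Snurf transcript NM_001270712, of an imprinted locus, was at 28.3 and 31.9, then 1.94 and 8.5, then 34.1 and 12.8 FPKM. The summed Snurf level was 961 and 972 FPKM in P28-VH and 953 and 1020 FPKM in P45-VH, which overlap. Stmn4, whose 6 transcripts also overlapped in sum, Hist2h3c2, Etnk2, the Kcng3 transcript NM_001033957, Dbil5 and LOC367195 filled the list, and of these none but Stmn4 exceeded 3.43 FPKM in a VH library. The other Kcng3 transcript had the opposite order after P28, and the Kcng3 sum was 1.66 and 2.14 FPKM in P28-VH and 0.9 and 1.15 FPKM in P45-VH (-0.51). Hist2h3c2, a histone H3 gene, was at 0.89 and 0 FPKM at P28 and at 3.41 and 3.43 FPKM at P45 (adjusted p = 0.149).

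**Figure D3:**
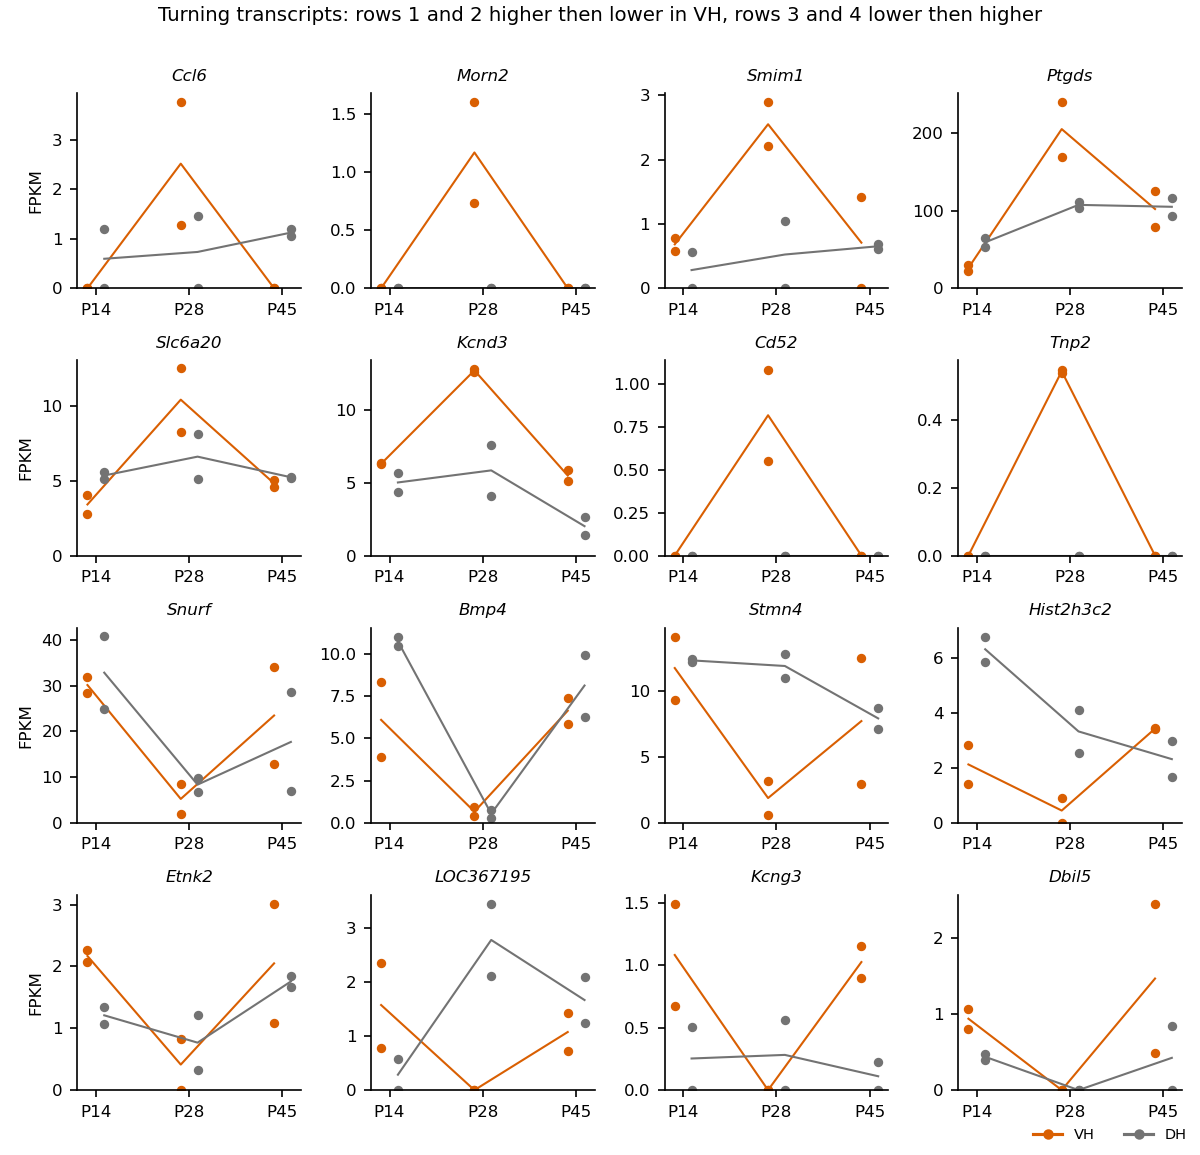
FPKM by age for the 16 transcripts named as turning after P28, with libraries as points and group means as lines, VH in orange and DH in grey. Ptgds in VH peaks at 241 and 169.9 FPKM at P28, and Bmp4 dips in both regions, to 0.93 and 0.392 FPKM in VH.

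How the same step ran in DH, which shares no library with VH but was in the same limma fit, was then compared. Nothing says whether VH and DH of an age came from the same animals. Of the 111 transcripts higher in VH at unadjusted p under 0.05 and 1.5-fold, 80 (72.1%) were also higher in DH, beside 48% of all tested. At unadjusted p under 0.05, 23 of them (20.7%) were higher in DH, beside 5.16% of all, and 6 were lower. Of the 141 lower in VH, 110 (78%) were lower in DH beside 49.8%, 43 (30.5%) at p under 0.05 beside 6.19%, and 1 was higher. The median change was 0.74 in VH and 0.22 in DH for the first set, and -0.75 and -0.26 for the second. These sets were chosen by their VH change, so a smaller median in DH carries no comparison of the regions. The fit gave both steps of a transcript the same estimate of spread. A small p in VH thus favoured a small p in DH in either direction. The shares at unadjusted p under 0.05 in DH are therefore a description, and the share of all tested is not a matched baseline. All 18 transcripts called at an average of 1 FPKM or more had the same direction in DH, and 14 had an unadjusted p under 0.05 there, the exceptions being Hpca, Dpysl4, Ucp2 and Fxyd6. By the call rule, 1 transcript (0.00701%) passed from P28 to P45 in DH. This count was 12 with a pseudocount of 0.1 FPKM, 6 at an average of 1 FPKM or more and 0 after quantile normalization.

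**Figure D4:**
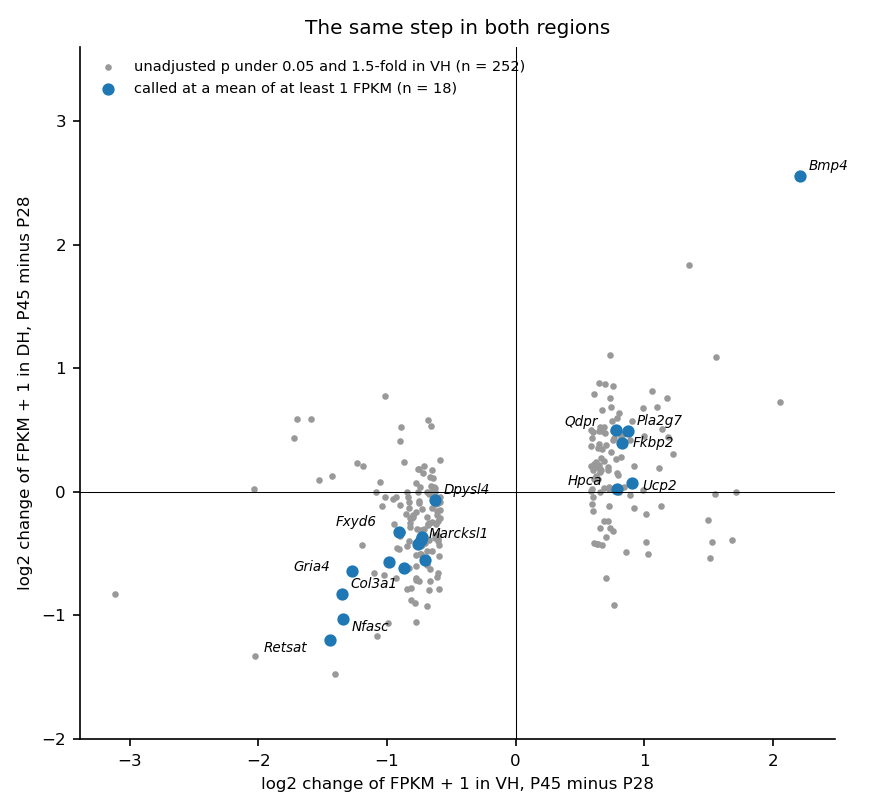
Log2 change of FPKM + 1 from P28 to P45 in VH (horizontal) and DH (vertical) for the 252 transcripts at unadjusted p under 0.05 and 1.5-fold in VH (grey) and the 18 called at an average of 1 FPKM or more (blue). Bmp4 lies at 2.21 in VH and 2.55 in DH, and Hpca at 0.79 in VH and 0.02 in DH.

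The difference between the VH and DH steps passed an adjusted p of 0.05 in 4 transcripts (0.0281%), and 1021 had an unadjusted p under 0.05. With the replicate number as a block in the limma fit, 0 passed. Among transcripts averaging 1 FPKM or more, 0 passed. With 1 library left out the count ran from 1, without either P14-DH library or the first P45-DH library, to 8 without the first P45-VH library and 9 without the second P28-VH library. The 4 were Il21, Tnp2 and the Plec transcript given above, and Ntf3 NM_001270868, of the neurotrophin-3 gene, which was at 0.544 and 0.512 FPKM in P45-DH and near 0 in the VH libraries. Among abundant transcripts the smallest p belonged to Sv2b, a synaptic vesicle glycoprotein. It was at 172 and 179 FPKM in P28-VH and 175 and 184 FPKM in P45-VH, which overlap, and at 141 and 136 FPKM in P28-DH and 102 and 103 FPKM in P45-DH, which do not. The step difference of 0.46 had an unadjusted p of 5.68e-05 and an adjusted p of 0.162.

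Gene lists of cell types and pathways were described by how many of their transcripts had an unadjusted p under 0.05. No list member passed the call over all transcripts, the lowest adjusted p being 0.0582 (Marcksl1), and each count is read beside the 6.35% higher and 6.16% lower of all tested.

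**Figure D5:**
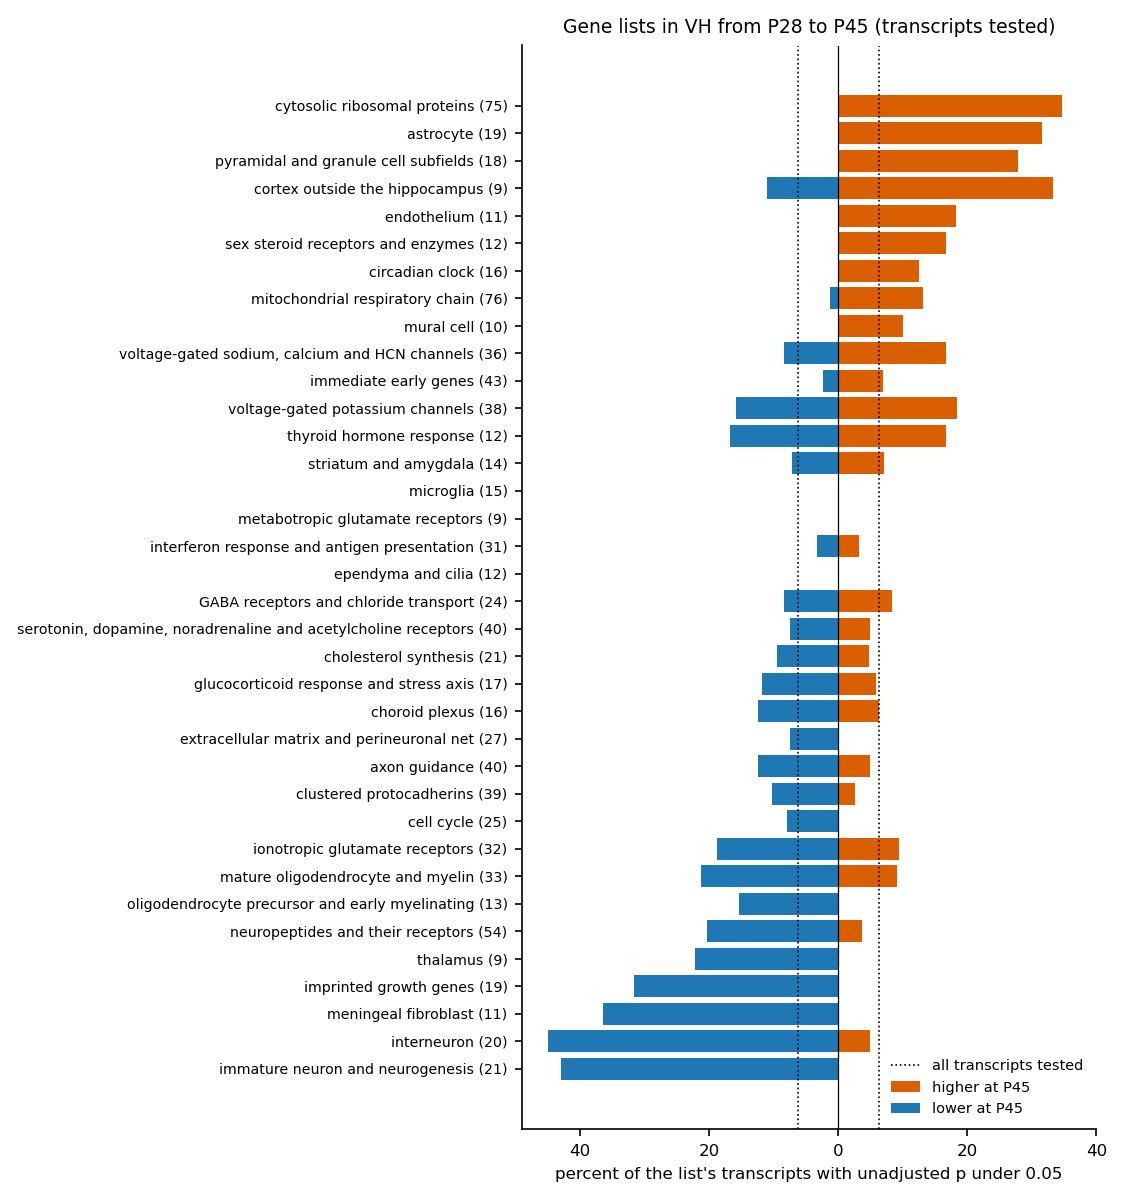
Bars give the percent of each list's tested transcripts (number in brackets) that were higher (orange, right) or lower (blue, left) at P45 than at P28 in VH at unadjusted p under 0.05, and dotted lines give the 6.35% and 6.16% of all 14259 transcripts. Among lists with no lower member, ribosomal proteins and astrocyte genes reach farthest to the right, and interneuron and immature neuron genes farthest to the left.

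Of 20 interneuron transcripts, 9 were lower at P45, 1 was higher and 10 passed in neither direction at unadjusted p under 0.05 in limma. Their median change was -0.31 beside -0.0002 for all. The GABA-synthesising enzymes were at 118 and 139 FPKM and then 89 and 97.6 FPKM for Gad1 (-0.45, SE 0.11, adjusted p = 0.183), and at 100.2 and 134 FPKM and then 71.5 and 73.7 FPKM for Gad2 (-0.67, SE 0.17, adjusted p = 0.2). Slc32a1, the vesicular GABA transporter, was at 43.3 and 54.2 FPKM and then 38.4 and 40.4 FPKM (-0.29, SE 0.12, adjusted p = 0.394). In these 3 genes the ages did not overlap. The neuropeptide somatostatin (Sst) was at 170.5 and 208 FPKM and then 120.1 and 110.5 FPKM (-0.70, SE 0.16, adjusted p = 0.16). Reln, the secreted guidance protein reelin, was at 9.52 and 12.3 FPKM and then 5.45 and 6.42 FPKM (-0.77, SE 0.15, adjusted p = 0.139), and Erbb4, a neuregulin receptor, at 10.7 and 13.6 FPKM and then 6.15 and 7.66 FPKM (-0.74, SE 0.17, adjusted p = 0.162). Pvalb, the calcium buffer of fast-spiking cells, was at 124 and 115 FPKM and then 115 and 120.1 FPKM (-0.02, SE 0.11, adjusted p = 0.997), and Vip was at 13.1 and 13.2 FPKM and then 8.7 and 12.3 FPKM (-0.32, SE 0.28, adjusted p = 0.688). Cck, which pyramidal cells also express, was the higher member (228 and 202 FPKM, then 259 and 254 FPKM, 0.25, SE 0.11, adjusted p = 0.394). DH had 11 of 20 lower, 0 higher by limma at this p, and a median of -0.36.

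Genes of immature neurons were lower in 9 of 21 transcripts and higher in 0 at unadjusted p under 0.05 in limma (median -0.22). Calb2, calretinin of young granule cells and some interneurons, was at 27.4 and 33.2 FPKM at P28 and 13.6 and 13.5 FPKM at P45 (-1.10, SE 0.23, adjusted p = 0.145). Dpysl5, a relative of Dpysl4, was at 19 and 20.9 FPKM and then 13.6 and 11.8 FPKM (-0.62, SE 0.10, adjusted p = 0.0984). Dcx, the microtubule protein doublecortin, was at 11 and 11.4 FPKM and then 6.72 and 8.99 FPKM (-0.48, SE 0.16, adjusted p = 0.3). In these 3 genes the P14-VH libraries were higher than at both later ages. Nrep, a regeneration-related protein, was at 31 and 31.2 FPKM and then 15.3 and 21.5 FPKM in VH (-0.75, SE 0.17, adjusted p = 0.161), against 27.6 and 28.3 FPKM and then 34.4 and 29.8 FPKM in DH. Its step difference was -0.94 (unadjusted p = 0.00451, adjusted p = 0.46). DH had 10 of 21 lower. Cell cycle genes had 2 of 25 lower and 0 higher in VH (median -0.0014).

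Of 19 astrocyte transcripts, 6 were higher and 0 lower by limma at unadjusted p under 0.05, with a median of 0.26. Gfap, the intermediate filament of astrocytes, was at 225 and 180.2 FPKM in P28-VH and 328 and 325 FPKM in P45-VH (0.69, SE 0.14, adjusted p = 0.139). S100b, a calcium-binding protein of astrocytes, was at 978 and 916 FPKM and then 1319 and 1326 FPKM (0.48, SE 0.09, adjusted p = 0.139). Neither overlapped between the ages. DH had 8 of 19 higher, with Gfap at 292 and 256 FPKM and then 510.4 and 495 FPKM. The largest differences in the list belonged to 2 of the 4 transcripts of the water channel Aqp4, which varied widely between duplicates, and in sum the 4 were at 168 and 166 FPKM and then 215 and 203 FPKM (0.32, adjusted p = 0.414). Microglia genes had 0 of 15 past unadjusted p under 0.05 in limma in either direction.

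Oligodendrocyte genes were mixed. Of 33 myelin transcripts 3 were higher and 7 lower (median -0.13), and in DH 1 was higher and 14 lower (median -0.39). The higher ones were Hapln2, a link protein of nodes, at 6.6 and 8.27 FPKM and then 13.2 and 13.1 FPKM (0.75, SE 0.19, adjusted p = 0.185), Gjb1, a gap junction protein, at 3.81 and 3.75 FPKM and then 6.97 and 5.92 FPKM (0.64, SE 0.14, adjusted p = 0.16), and Car2, a carbonic anhydrase. None of the 3 overlapped between the ages. Among the lower ones, Ugt8, the galactosyltransferase of myelin lipids, was at 78.2 and 61.3 FPKM and then 49.2 and 36.8 FPKM (-0.69, SE 0.27, adjusted p = 0.355). Mobp, a structural myelin protein, was at 122 and 102 FPKM and then 87 and 70.8 FPKM (-0.50, SE 0.18, adjusted p = 0.323). For Mbp, myelin basic protein, 2 of 6 transcripts were lower, while their sum of 2231 and 1794 FPKM at P28 and 2052 and 1522 FPKM at P45 overlapped. Duplicates of these lower genes differed in the same sense at P28 and P45, with the first VH library above the second. In P14-VH the order was reversed for the Mbp sum, at 727 and 997 FPKM. Of 13 precursor and early myelinating genes, 2 were lower and 0 higher by limma. These were Gpr17, a receptor of committed precursors, at 42.7 and 42.2 FPKM and then 29 and 30.6 FPKM (-0.50, SE 0.12, adjusted p = 0.174), and Enpp6, of newly myelinating cells, at 10.8 and 8.43 FPKM and then 6.6 and 3.97 FPKM (-0.78, SE 0.24, adjusted p = 0.251).

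Pyramidal and granule cell genes had 5 of 18 transcripts higher and 0 lower in VH by limma at unadjusted p under 0.05, and 0 higher and 1 lower in DH. Slc17a7, the vesicular glutamate transporter, was at 997 and 978 FPKM and then 1197 and 1121 FPKM in VH (0.23, SE 0.06, adjusted p = 0.174). In DH it was at 1187 and 1197 FPKM and then 1027 and 1098 FPKM, and the step difference was 0.40 (unadjusted p = 0.000993, adjusted p = 0.389). Bok, a Bcl-2 relative of CA3, was at 24.8 and 20.9 FPKM and then 40.5 and 33 FPKM (0.66, SE 0.14, adjusted p = 0.145). Grik4, a kainate receptor subunit of CA3, was at 34 and 36.7 FPKM and then 45.1 and 46.7 FPKM (0.37, SE 0.08, adjusted p = 0.159), with a step difference of 0.53 (unadjusted p = 0.00188, adjusted p = 0.403). Neurod6, a transcription factor of pyramidal cells, was at 147 and 145 FPKM and then 208 and 178 FPKM (0.39, SE 0.15, adjusted p = 0.341), and Rgs14 of CA2 at 29.2 and 28 FPKM and then 37.7 and 32.9 FPKM (0.29, SE 0.09, adjusted p = 0.264). Prox1 of granule cells was at 17.7 and 15.7 FPKM and then 14.5 and 9.8 FPKM (-0.45, SE 0.25, adjusted p = 0.508). The list's median change was 0.03, near that of all transcripts. Of 9 transcripts of cortex outside the hippocampus, 3 were also higher (Lamp5, Tbr1 and Rorb) and 1 lower (Cux2), and their sum was 66.2 and 69.6 FPKM in P28-VH and 104 and 78 FPKM in P45-VH. Lamp5, the most abundant of the 9 in FPKM, was at 23.1 and 27.2 FPKM and then 59 and 32.5 FPKM (0.78, SE 0.28, adjusted p = 0.317). The part of such tissue in the higher pyramidal cell genes was not tested.

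Among receptor and channel genes, the metabotropic glutamate receptors had 0 of 9 transcripts past unadjusted p under 0.05 in limma in either direction. Of 32 ionotropic glutamate receptor transcripts, 3 were higher and 6 lower, the lower ones including, beside Gria4, NMDA receptor subunits of early life. Grin3a NM_001198583 was at 4.67 and 7.14 FPKM and then 1.59 and 3.12 FPKM (-1.06, SE 0.25, adjusted p = 0.164), and Grin2d at 3.78 and 4.31 FPKM and then 2.33 and 2.49 FPKM (-0.56, SE 0.21, adjusted p = 0.332). Of 24 transcripts of GABA receptors and chloride transport 2 were higher and 2 lower (8.33% each), near the shares of all transcripts. Gabrq, the theta subunit, was at 1.86 and 3.26 FPKM in P28-VH and 0.203 and 0.406 FPKM in P45-VH (-1.43, SE 0.20, adjusted p = 0.0771). All 6 VH libraries held Gabrq, and in DH 5 of 6 were listed at 0. Of 38 potassium channel transcripts 7 were higher and 6 lower. Of 36 sodium, calcium and HCN channel transcripts 6 were higher and 3 lower. Scn4b, a sodium channel beta subunit, was at 5.01 and 4.51 FPKM and then 7.78 and 8.56 FPKM (0.67, SE 0.17, adjusted p = 0.2), and Scn3a, a sodium channel most abundant early in life, at 12.8 and 15.3 FPKM and then 8.99 and 9.01 FPKM (-0.58, SE 0.13, adjusted p = 0.162).

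Neuropeptides and their receptors had 11 of 54 transcripts lower and 2 higher (median -0.20), against 7 lower and 0 higher by limma in DH. Oxtr, the oxytocin receptor, was at 2.21 and 2.9 FPKM in P28-VH and 0.722 and 0.72 FPKM in P45-VH (-1.04, SE 0.32, adjusted p = 0.255). Tacr1, the substance P receptor, was at 4.49 and 4.15 FPKM and then 1.45 and 2.58 FPKM (-0.84, SE 0.31, adjusted p = 0.321), and Rxfp3, a relaxin family receptor, at 4.61 and 5.39 FPKM and then 2.12 and 3.53 FPKM (-0.67, SE 0.24, adjusted p = 0.309). In these 3 receptors the VH ages did not overlap, and all 6 DH libraries lay below both P28-VH libraries. Nmb, the peptide neuromedin B, was at 2.37 and 3.88 FPKM and then 0.384 and 1.15 FPKM (-1.23, SE 0.35, adjusted p = 0.226), while DH held 12.9 to 24.2 FPKM.

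Cytosolic ribosomal protein genes had small differences, 65 of 75 transcripts being above 0 and 10 below, with 26 higher and 0 lower by limma at unadjusted p under 0.05, and a median of 0.15. In DH 33 were higher and 0 lower, with a median of 0.19. Rpl37, of the large subunit, was at 691 and 666 FPKM in P28-VH and 939 and 921 FPKM in P45-VH (0.45, SE 0.06, adjusted p = 0.0857). Respiratory chain genes had 10 of 76 higher and 1 lower (median 0.06). Imprinted growth genes had 6 of 19 lower and 0 higher (median -0.28), among them Grb10, an adaptor of insulin signalling, at 13.2 and 14.2 FPKM and then 7.11 and 9.21 FPKM (-0.69, SE 0.14, adjusted p = 0.139), and Igf2, a fetal growth factor, at 13.3 and 11.9 FPKM and then 9.37 and 8.3 FPKM (-0.47, SE 0.17, adjusted p = 0.321). In DH, 2 of these 19 were lower and 1 higher.

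Marker lists of neighbouring tissue were set beside these results. Of 11 meningeal fibroblast transcripts, 4 were lower and 0 higher in limma (median -0.54), and their summed level was 72.2 and 76 FPKM in P28-VH and 46.6 and 51.9 FPKM in P45-VH. In DH the sum was 57 and 54.9 FPKM and then 54.1 and 62.8 FPKM. Col3a1 belongs to this list, as do Col1a1, at 3.97 and 4.67 FPKM and then 2.4 and 1.93 FPKM (-0.75, SE 0.14, adjusted p = 0.134), and Dcn, at 18.5 and 17.6 FPKM and then 9.58 and 11.5 FPKM (-0.73, SE 0.17, adjusted p = 0.161). The part of meningeal tissue in the lower Col3a1 and Igf2 levels of VH was not tested. Of 9 thalamic transcripts 2 were lower, Calb2 and Slc17a6, and the median was 0, with 4 above and 4 below 0. Their sum was 51.4 and 55.8 FPKM and then 35.2 and 34.8 FPKM, of which Calb2 made 27.4 and 33.2 FPKM and then 13.6 and 13.5 FPKM. Of 14 striatum and amygdala transcripts 1 was higher and 1 lower, the sum was 101 and 104 FPKM and then 111 and 106 FPKM, and Rgs9 was at 4.13 and 4.14 FPKM and then 1.41 and 2.02 FPKM. Blood transcripts summed to 599.4 and 853.8 FPKM and then 522.5 and 513.6 FPKM.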

How the data were processed

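Hippocampal tissue of Sprague-Dawley rats gave 12 libraries, 2 for each region and age, and the labels put each in its group. The authors used a TruSeq kit, mapped reads to rn5 with TopHat2 and deposited FPKM per RefSeq transcript. Their methods state scaling by the trimmed mean of M-values, which could not be checked in the values. The submitters' processing notes name Bowtie2 2.1.0, TopHat2 2.0, Cufflinks 2.2.1, SAMtools 0.1.19 and R 3.3.0. Between 67.9% and 70.3% of low duplicate ratios lay within 0.01 (natural log) of whole-read ratios. Read counts were not recovered from the FPKM values, and depth per library was not derived from them.

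Every transcript that exceeded 0 FPKM in 2 or more libraries was fitted as log2(FPKM + 1) in limma 3.58.1 under R 4.3.3 (6 group means, 6 residual degrees of freedom, eBayes with a trend), with Benjamini-Hochberg adjustment over the 14259 tested. Calls needed an adjusted p under 0.05 and 1.5-fold, and step differences an adjusted p under 0.05. Fold changes are on the FPKM + 1 scale and understate those of low transcripts. The script was tested on simulated data.

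Up to 10 transcripts per direction (calls, then the largest changes at unadjusted p under 0.05 without overlap), 8 turning per direction, 5 step differences, those called at an average of 1 FPKM or more, and up to 4 members of each list plus its defining genes could be named. The comparison, the 40 gene lists and these rules were chosen with earlier results of these data known. Promoters came from RefSeq (GRCr8), where 16928 of 17933 identifiers (94.4%) were found. Other pseudocounts, filters, scalings, fits and left-out libraries were tried. Tables used pandas 2.3.3 and NumPy 2.4.6 under Python 3.11.15, and figures matplotlib 3.10.9.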

Additional observations from a re-analysis of the deposited data

Results flagged for a closer look

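In 4 transcripts the change from P28 to P45 differed between VH and DH by a test of the difference itself (limma, adjusted p under 0.05). With a replicate block in the fit, 0 passed. Il21 had a VH minus DH difference of 0.8 on the log2 scale, from 0.745 and 0.747 FPKM in P45-VH and 0 elsewhere. Tnp2 had a difference of -0.62, from 0.547 and 0.537 FPKM in P28-VH and 0 elsewhere. Il21 and Tnp2 were tested only because of these 2 libraries each, so their tests add nothing to the values. The Plec transcript NM_001164297 had a difference of 1.57 (adjusted p = 0.0207), with 1.58 and 2.34 FPKM in P45-VH and at most 0.0243 FPKM in any other library. This call was not firm, as its adjusted p in limma was 0.0623 without a trend in eBayes and 0.087 with a replicate block. Summed over its 11 transcripts the Plec difference was -0.24. The Ntf3 transcript NM_001270868 had a difference of -0.61 (adjusted p = 0.0207), with 0.544 and 0.512 FPKM in P45-DH. Summed over its 4 transcripts the Ntf3 difference was -0.45 (adjusted p = 0.792).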

How the results depend on the processing

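The main counts were 3 transcripts higher and 2 lower in VH from P28 to P45, 1 and 0 turning, 4 step differences, 1 call in DH and 343 calls in VH from P14 to P28. With a pseudocount of 0.1 FPKM, 6 were higher, 8 lower and 5 turned from higher to lower, and DH had 12 calls. At an average of 1 FPKM or more, 6 were higher, 12 lower, 0 turned from higher to lower and 1 from lower to higher, 0 step differences passed, and DH had 6 calls. Quantile normalization left 0 step differences and 0 DH calls, and equal library medians 2 and 0. With only the compared groups in the limma fit, every count was 0, the P14 to P28 step included, while 95 were higher and 128 lower at unadjusted p under 0.05 and 1.5-fold. The treat test against 1.5-fold gave 0 higher, 0 lower, 0 turning, 0 step differences, 0 DH calls and 14 for the earlier step, beside 14 higher and 21 lower at unadjusted p under 0.05. Without a trend 1 was lower and 1 step difference passed. At an adjusted p under 0.01, 1 was lower, 0 step differences passed and 127 were called at the earlier step. With transcripts of a symbol summed, 8 were lower, and 0 step differences and 0 DH calls passed. Leaving out 1 library at a time gave 2 to 9 higher, 1 to 7 lower, 1 to 7 turning from higher to lower and 0 from lower to higher, 1 to 9 step differences, 1 to 6 DH calls and 144 to 348 calls at the earlier step. The largest counts came without P45-VH library 2 (9 higher) or P28-VH library 2 (7 lower). In a fit that left a group with 1 library, that library was assumed to vary like the other groups.

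Libraries share only a number: the correlation of the differences between duplicates was -0.0117 between P28-VH and P45-VH and 0.00822 between P14-VH and P28-VH, and for VH with DH of one age it was 0.0752 (P14), 0.0981 (P28) and 0.111 (P45). A replicate block in the fit gave 3 higher (Il21, Plec and Qdpr), 1 lower (Tnp2) and 0 step differences (adjusted p = 0.0592 for Il21 and 0.087 for Plec, Tnp2 and Ntf3), a block within each age gave 4 step differences, and with the first block Hpca and Dpysl4 were at adjusted p-values of 0.0514 and 0.0797.

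With transcripts of a symbol summed, changes reversed for Plec (-0.0026, and -0.2351 for the step difference), Cep63 (0.0791), Stmn4 (-0.043), Kcng3 (-0.5147) and Ntf3 (-0.1107). The small VH change of Sv2b reversed under quantile normalization (-0.0194) and without P28-VH library 1 or P45-VH library 2, and ran from -0.0088 to 0.0649 with 1 library left out. The cause was not tested. Of the other verdicts on single transcripts, 1092 kept their direction and side of the threshold, 94 lost it and 35 gained it. Only results that passed in the main fit could lose it. Most of the 1092 belonged to results that did not pass there, so this count does not measure how firm the calls were. Over the alternatives, adjusted p ran from 0.0128 to 1 for Hpca and from 0.017 to 1 for Dpysl4. Without read counts in the tables, differences of low transcripts were not set against counting error.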

Other observations

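Of 17 glucocorticoid response and stress transcripts, 1 was higher (5.88%) and 2 lower (11.8%) in VH at unadjusted p under 0.05 in limma. Of all tested transcripts, 6.35% were higher and 6.16% lower. Cdkn1a, a cell cycle inhibitor, was at 3.52 and 3.04 FPKM in P28-VH and 1.15 and 1.36 FPKM in P45-VH (-0.92, unadjusted p = 0.000282, adjusted p = 0.1), and was at 2.63 and 2.46 FPKM and then 1.72 and 1.46 FPKM in DH. Lcn2, an iron-carrier binding protein of stressed tissue, was at 3.01 and 4.23 FPKM at P14, 0.266 and 0.524 FPKM at P28 and 1.56 and 1.3 FPKM at P45 in VH (adjusted p = 0.185 for the later step). Of 40 axon guidance transcripts, 2 were higher (5%) and 5 lower (12.5%). Efnb2, the ligand ephrin-B2, was at 25.3 and 24 FPKM and then 12.6 and 15.1 FPKM in VH (-0.79, adjusted p = 0.162), against 7.42 and 5.62 FPKM and then 5.46 and 5.7 FPKM in DH. Of 27 extracellular matrix and perineuronal net transcripts, 0 were higher and 2 lower (7.41%) by limma at unadjusted p under 0.05. The lower share was near that of all tested. Among the 2 was Adamts4, a proteoglycan-cleaving protease, at 11.3 and 9.34 FPKM and then 6.18 and 4.73 FPKM (-0.81, adjusted p = 0.226).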
